A study of Drosophila sechellia and Drosophila simulans with 8 samples.

Results

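UDP-glycosyltransferase (UGT) genes were described in the bodies of adult females of Drosophila sechellia and Drosophila simulans. Members were the probe sets whose only gene symbol in the D. melanogaster annotation of the array begins with Ugt and a number. Of 18952 probe sets 35 met this rule, for 35 of 11982 genes named on the array, with 1 probe set each, and no measured value was used. Of these, 26 passed a limit on dim signals and were tested, and 9 lay below it. The design crossed species with a choice or no-choice treatment that concerned a mixture of octanoic with hexanoic acid, and what flies of each treatment were exposed to is not stated further in the labels. Each of 4 groups had 2 Affymetrix arrays: sechellia choice, sechellia no choice, simulans choice and simulans no choice. Flies of all groups were reared at 25 °C on yeast and cornmeal food. Strain, age and exposure time are not given in the sources used here. Labels merely number the arrays of a group, so p-values measure the spread between these arrays, which may be technical.

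UGTs are membrane-bound enzymes, mostly of the endoplasmic reticulum, that move a sugar from a UDP-sugar onto small fat-soluble molecules, which makes them easier to excrete. In insects the usual donor is UDP-glucose. The enzymes act on plant toxins, insecticides, pigments, hormones and odorants, and many are made in the gut, fat body and Malpighian tubules. The number and letter after Ugt give the family and subfamily by protein similarity, and for most fly members the natural substrate is not known. D. sechellia feeds and breeds on the noni fruit (Morinda citrifolia), whose fatty acids, above all octanoic acid, poison D. simulans.

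Values are MAS5 probe-set signals, a brightness scaled by the authors to the same trimmed mean on every array. Different probe sets bind with different strength, so signals of different genes are not compared as RNA levels. The probes were designed on D. melanogaster sequence, so a species difference in RNA and one in how well the RNA matches the probes cannot be told apart. In whole bodies, fewer cells of a type and less RNA per cell cannot be told apart either.

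Array 1 of sechellia choice stood apart. Over 13138 tested probe sets it correlated with other sechellia arrays at 0.712 to 0.72, where arrays of the same group otherwise correlated at 0.963 to 0.969. Its Bacillus control probe sets, which match no fly RNA, had a median signal of 128.8, against 12.3 to 28.1 on the 7 other arrays. Results are given both with 8 arrays and with 7, the second leaving this one out, where sechellia choice rests on its array 2 alone. Most body tissue markers were bright: every probe set of the ovary, Malpighian tubule and muscle lists lay above all 24 Bacillus controls on the 7 arrays. So did 7 of 9 fat body and haemolymph, 5 of 6 midgut and 3 of 4 oenocyte probe sets. Of 3 head and eye markers found and of 4 antenna markers found, 0 did so on all 7 arrays, and of 13 male markers 1 did. Head and eye markers still differed between the species. Their summed signal without array 1 was 616.4 to 683.1 in sechellia against 165.9 to 432.5 in simulans. With 8 arrays, 2 of 2 tested were called higher in sechellia, where 9.87% of all tested probe sets were called. Of 6 midgut markers, 4 were called lower and 2 higher in sechellia in both fits. Without array 1, their summed signal, in which bright probe sets weigh most, was 12870 to 20510 in sechellia against 44320 to 53750 in simulans, and that of ovary and eggshell markers 47520 to 71220 against 93710 to 108800. Sums overlapped for the Malpighian tubule, at 5078 to 6046 in sechellia and 5649 to 6052 in simulans, and for the fat body and haemolymph, at 78720 to 94340 and 71630 to 83150. Single markers of these lists differed. With 8 arrays, 3 of 7 tested fat body and haemolymph probe sets were called higher and 0 lower. Of 7 Malpighian tubule probe sets 0 were called higher and 1 lower with 8 arrays. Without array 1, tubule markers differed in both directions, with log2 species differences of 0.57 for NKAIN and -0.66 for ZnT35C. The median log2 species differences with 7 arrays were 0.31 for fat body and haemolymph and 0.4 for the Malpighian tubule. The part of these tissue markers in the UGT results below was not tested.

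Dim UGT probe sets read higher and bright ones lower on array 1. Of 7 members with a geometric mean signal of 300 or more on the other arrays, 0 were brighter on array 1 than on array 2 of sechellia choice, with a median log2 difference of -0.87. Of 20 members with a mean below 100, 19 were brighter on array 1, with a median of 1.98. All tested probe sets showed the same pattern. In bins of signal their median was 1.96 near 53.7, 1.13 near 150, -0.14 near 609 and -0.62 near 1685. Array 1 held the highest of the 8 signals for 24 of 35 members. Among the tested members, the median absolute log2 difference between the arrays of a group was 1.35 in sechellia choice, 0.23 in sechellia no choice, 0.14 in simulans choice and 0.25 in simulans no choice. Over all tested probe sets it was 0.92, 0.19, 0.18 and 0.18 in the same order.

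**Figure D1:**
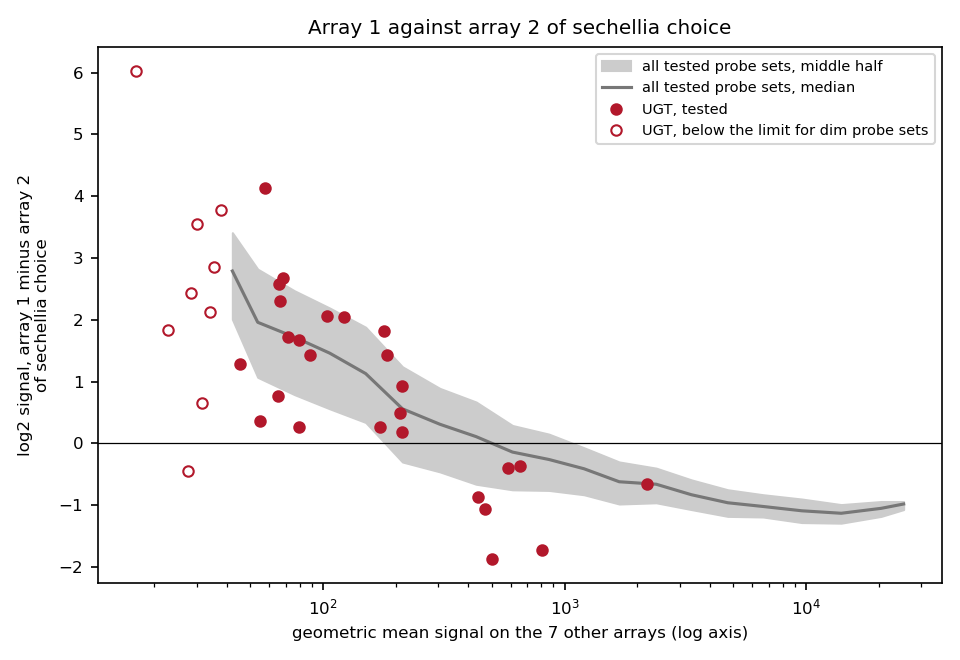
Log2 signal on array 1 minus array 2 of sechellia choice (vertical axis) against the geometric mean signal on the 7 other arrays (horizontal log axis) for 35 UGT probe sets, filled where tested and open where dim. The grey line and band give the median and the 25th to 75th percentile of all tested probe sets in bins of signal. Dim members lie above 0, with 1 exception, and the 7 members with signals of 300 or more lie below it.

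Not all members gave a signal that stood out from the controls. On all 7 arrays, 12 members were brighter than the highest of the 24 Bacillus controls: Ugt35A1, Ugt35C1, Ugt36A1, Ugt36D1, Ugt36E1, Ugt37D1, Ugt49B1, Ugt49C1, Ugt301D1, Ugt302C1, Ugt316A1 and Ugt317A1. A further 16 were so on some arrays, and 7 on none, namely Ugt35D1, Ugt35E2, Ugt37A1, Ugt37A3, Ugt37C1, Ugt50B3 and Ugt303B1. The probe sets of Ugt36E1, Ugt37D1 and Ugt50B3 carry the suffix that marks probes shared by several transcripts, so their signal may include related RNA.

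The first comparison asked whether the bodies of the species differ in these enzymes, averaged over choice and no choice. Ugt35C1, Ugt35B1 and Ugt302C1 were lower in sechellia and Ugt49B1 was higher, both with and without array 1. Without array 1, Ugt37B1 was also lower, and Ugt49C1, Ugt36A1, Ugt301D1 and Ugt36D1 were also higher. With array 2 of sechellia choice left out in place of array 1, the log2 species difference was 0.62 for Ugt37B1 and -0.34 for Ugt301D1. With 8 arrays, limma called 4 of 26 tested members at an adjusted p below 0.05 (1 higher, 3 lower), where 9.87% of all tested probe sets were called (4.41% higher, 5.46% lower). With 7 arrays it called 9 of 26 (5 higher, 4 lower), where 32.5% of all were called (16.9% higher, 15.6% lower). The share of members called with 7 arrays was thus near that of all probe sets. The members' median log2 difference, sechellia minus simulans, was 0.2 with 8 arrays and 0.05 with 7, beside 0.14 and 0.07 over all tested probe sets. Leaving out array 2 of sechellia choice gave 13 members, where 62.1% of all probe sets were then called. Where any 1 array of sechellia no choice or of simulans was left out, 3.59% to 3.83% of all probe sets were called. The members called were then 2 without array 2 of sechellia no choice, array 1 of simulans choice or array 2 of simulans no choice, and 1 without array 1 of sechellia no choice, array 2 of simulans choice or array 1 of simulans no choice.

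**Figure D2:**
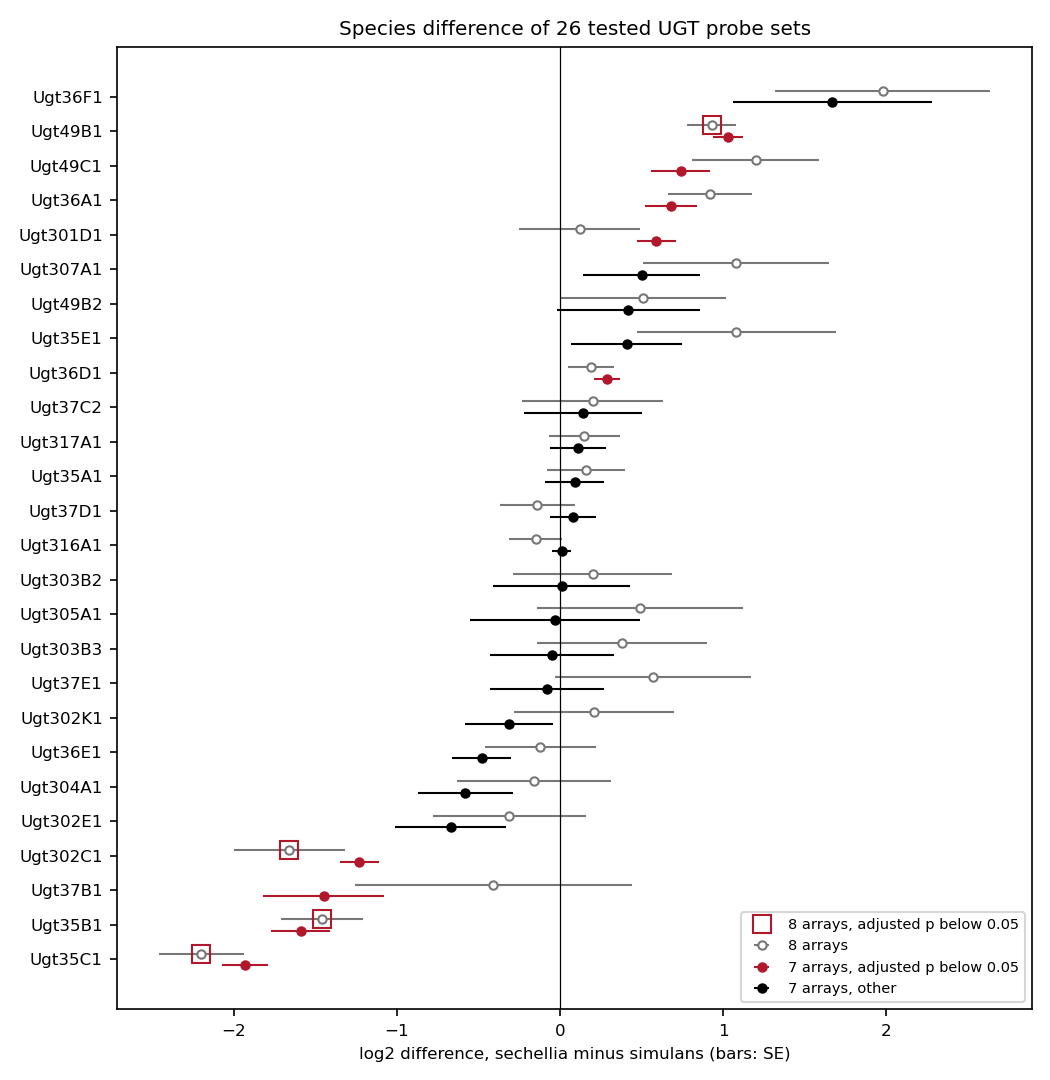
Log2 difference, sechellia minus simulans averaged over treatments, with its standard error, for the 26 tested UGT probe sets with 8 arrays (open) and with 7 (filled). Red marks an adjusted p below 0.05; Ugt35C1, Ugt35B1 and Ugt302C1 at the bottom and Ugt49B1 near the top carry it in both fits.

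Ugt35C1 of family 35 had the largest called difference of the species averages in both fits. It had signals of 125 on array 1 and 262 on array 2 of sechellia choice and of 159 and 229 in sechellia no choice, against 900.2 and 909 in simulans choice and 819 and 784 in simulans no choice. All 4 sechellia arrays lay below all 4 simulans arrays. The log2 difference was -2.2 ± 0.26 with 8 arrays (SE, limma adjusted p = 0.0018) and -1.93 ± 0.14 with 7 (limma adjusted p = 1.5e-05), or 3.81-fold lower. Array 1 of sechellia choice lay at 125, just below its own median Bacillus signal of 128.8. Of the called members, Ugt35C1 was the one that passed when any 1 of the 8 arrays was left out.

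Ugt35B1, known in D. melanogaster for strong expression in the antenna, had signals of 202 on array 1 and 143 on array 2 of sechellia choice and of 89.4 and 95.9 in sechellia no choice, against 316 and 405 in simulans choice and 383 and 291 in simulans no choice. Again no sechellia array reached the simulans range. It was lower by log2 -1.46 ± 0.25 with 8 arrays (limma adjusted p = 0.0097) and by -1.59 ± 0.18 with 7 (limma adjusted p = 0.00021). The summed signal of the 4 antenna markers was 105 to 195 on the other 3 sechellia arrays, 889 on array 1 and 204 to 334 in simulans, and its part in this difference was not tested. Without any 1 array other than those of sechellia choice, Ugt35B1 missed the threshold (highest limma adjusted p = 0.083), at a log2 difference between -1.59 and -1.34 over all left-out arrays.

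The other tested members of family 35 were not called. Ugt35A1 had 259 and 217 in sechellia choice and 144 and 167 in sechellia no choice, against 169 and 174 in simulans choice and 189 and 156 in simulans no choice, which overlap. Its difference was 0.09 ± 0.18 with 7 arrays. Ugt35E1 gave 0.41 ± 0.34 with 7 arrays, and its signal of 563 on array 1 was its highest signal. Ugt35E2 and Ugt35D1 were too dim to test. Ugt35E2 had 18.5 on array 2 of sechellia choice and 12.2 and 11.1 in sechellia no choice, against 60.9 and 57.5 in simulans choice and 91.3 and 28.1 in simulans no choice, and 216 on array 1. Both sechellia no choice signals lay below their arrays' median Bacillus signal, so the difference is a bound. With signals raised to that median it was -1.5 with 7 arrays, or 2.83-fold lower, and -0.61 with 8 arrays, values that carry no error. Ugt35E2 was brighter than the highest Bacillus control on 0 of the 7 arrays.

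In the 302 family, Ugt302C1 was among the 3 members with the highest signals. It had 166 on array 1 and 547 on array 2 of sechellia choice and 456 and 469.9 in sechellia no choice, against 979 and 1265 in simulans choice and 1117 and 1412 in simulans no choice. The species did not overlap, and array 1 lay far below the other sechellia arrays. The difference was -1.66 ± 0.34 with 8 arrays (limma adjusted p = 0.02) and -1.23 ± 0.12 with 7 (limma adjusted p = 9.2e-05), or 2.35-fold lower. Without any 1 array of sechellia no choice or of simulans it missed the threshold, at limma adjusted p = 0.076 to 0.1. Its relatives Ugt302E1 and Ugt302K1 were dimmer and gave -0.67 ± 0.34 and -0.31 ± 0.27 with 7 arrays, neither called. With 8 arrays Ugt302K1 stood at 0.21, with 420.0 on array 1 as its highest signal.

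In family 49, Ugt49B1 was higher in both fits, Ugt49C1 with 7 arrays, and Ugt49B2 in neither. Ugt49B1 had 738 on array 1 and 975 on array 2 of sechellia choice and 880 and 754 in sechellia no choice, against 455 and 431 in simulans choice and 420.2 and 436 in simulans no choice. All 4 sechellia arrays, array 1 included, were above all simulans arrays. It was higher by log2 0.93 ± 0.15 with 8 arrays (limma adjusted p = 0.0068) and by 1.03 ± 0.09 with 7 (limma adjusted p = 6e-05), or 2.05-fold. It missed the threshold without array 1 of sechellia no choice, array 2 of simulans choice or array 1 of simulans no choice (limma adjusted p = 0.051 to 0.057). Ugt49C1 had 763 on array 1 and 215 on array 2 of sechellia choice and 250.5 and 268 in sechellia no choice, against 149 and 117 in simulans choice and 164 and 139.9 in simulans no choice. These groups did not overlap either. It was higher by 0.74 ± 0.18 with 7 arrays (limma adjusted p = 0.013), while with 8 arrays, where array 1 widened the spread, it gave 1.2 ± 0.39 (limma adjusted p = 0.11). Ugt49B2 was dim and gave 0.42 ± 0.44 with 7 arrays, with no call.

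In the averaged species difference, the members of family 36 were higher or not called. Ugt36A1 had 617 on array 1 and 323 on array 2 of sechellia choice and 234 and 265 in sechellia no choice, against 151 and 179.8 in simulans choice and 207 and 173 in simulans no choice. Every sechellia array was above every simulans array. It was higher by 0.68 ± 0.16 with 7 arrays (limma adjusted p = 0.012) and gave 0.92 ± 0.26 with 8 (limma adjusted p = 0.072).

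Ugt36D1 moved least among the called members. It had 589.6 on array 1 and 763 on array 2 of sechellia choice and 738 and 680.2 in sechellia no choice, against 640.1 and 656 in simulans choice and 562 and 559.8 in simulans no choice. The species did not overlap once array 1 was set aside. The difference was 0.29 ± 0.08 with 7 arrays (limma adjusted p = 0.024) and 0.19 ± 0.14 with 8 (limma adjusted p = 0.42). Ugt36F1 gave the largest positive difference of the tested members without passing, 1.67 ± 0.61 with 7 arrays (limma adjusted p = 0.071) and 1.98 ± 0.66 with 8 (limma adjusted p = 0.11). Its signals were 238 and 98.2 in sechellia choice and 122 and 53.5 in sechellia no choice, against 19.8 and 21.2 in simulans choice and 74.9 and 19.8 in simulans no choice. Array 1 of simulans no choice lay inside the sechellia range. The other simulans signals lay near the median Bacillus signals of their arrays, 21.05 and 13.25 in choice and 17.05 in no choice. Without array 1 of sechellia choice, the geometric mean of Ugt36F1 was 45.4, below the dim limit of 49.9 that was set over 8 arrays. With signals raised to the median Bacillus signal its difference was 1.64 with 7 arrays and 1.96 with 8. Ugt36E1 gave -0.48 ± 0.18 with 7 arrays (limma adjusted p = 0.076).

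Family 37, with 8 members, was mostly dim. Ugt37D1 was its brightest probe set, with 269 and 489 in sechellia choice and 410.3 and 449 in sechellia no choice, against 343 and 496 in simulans choice and 487 and 429 in simulans no choice. The groups overlapped, at a difference of 0.08 ± 0.14 with 7 arrays. Ugt37B1 had 210.5 on array 1 and 11.9 on array 2 of sechellia choice and 63.4 and 74.7 in sechellia no choice, against 89.8 and 93.3 in simulans choice and 72.6 and 61.4 in simulans no choice. It was called lower with 7 arrays at -1.45 ± 0.37 (limma adjusted p = 0.016) and gave -0.41 ± 0.85 with 8 (limma adjusted p = 0.78). That call rests on array 2 of sechellia choice, which was below its array's median Bacillus signal of 12.3. Without that array the difference was 0.62, and in no choice alone it was 0.04 ± 0.47.

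Ugt37A2 was too dim on average to be tested but differed between the species. It had 7.7 on array 2 of sechellia choice and 10.6 on both arrays of sechellia no choice, against 76.3 and 119 in simulans choice and 158 and 89.2 in simulans no choice. Array 1 of sechellia choice read 105, inside the simulans range. All 4 sechellia arrays were at or below their own median Bacillus signal, so the difference is a bound. With signals raised to that median and without array 1, it was lower in sechellia by log2 -2.75, or 6.73-fold, a value that carries no error. Ugt37A2 was brighter than the highest Bacillus control on 2 of the 7 other arrays. With array 1 kept, the raised difference was -1.9. Ugt37A2 and Ugt35E2 were picked out after their values were seen.

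The tests left Ugt37C2 and Ugt37E1 uncalled, at 0.14 ± 0.36 and -0.08 ± 0.35 with 7 arrays. Ugt37A3 was the dimmest member by geometric mean, with 572 on array 1 and 8.8 on array 2 of sechellia choice and 37.3 and 10.4 in sechellia no choice, against 14.8 and 17.9 in simulans choice and 8.4 and 50.7 in simulans no choice. These groups overlapped.

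Among the families with 1 or few members, Ugt301D1 had 205 on array 1 and 751 on array 2 of sechellia choice and 484 and 633.5 in sechellia no choice, against 362 and 350.2 in simulans choice and 482 and 549 in simulans no choice. The species overlapped. It was called higher with 7 arrays at 0.59 ± 0.12 (limma adjusted p = 0.0055) but gave 0.12 ± 0.37 with 8 (limma adjusted p = 0.85), and without array 2 of sechellia choice it was called lower, at -0.34.

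Ugt316A1 had the highest signal of all members and, with 7 arrays, the narrowest error. It had 1423 on array 1 and 2233 on array 2 of sechellia choice and 2237 and 2161 in sechellia no choice, against 2221 and 2407 in simulans choice and 2091 and 2072 in simulans no choice. Apart from array 1 the groups overlapped, with a difference of 0.01 ± 0.06 with 7 arrays. Ugt317A1, Ugt305A1, Ugt307A1 and Ugt304A1 gave 0.11 ± 0.17, -0.03 ± 0.52, 0.50 ± 0.36 and -0.58 ± 0.29 with 7 arrays, and none was called. Of family 303, Ugt303B2 and Ugt303B3 were tested and gave 0.01 ± 0.42 and -0.05 ± 0.38. Ugt303A1 and Ugt50B3 were, with Ugt37A3, the 3 dimmest members. Ugt303A1 had 54.7 and 74.5 in sechellia choice and 3.9 and 46.8 in sechellia no choice, against 16.6 and 42 in simulans choice and 29.3 and 44.9 in simulans no choice. Ugt50B3, of a family found as a single gene in many insects, had 89.3 and 24.9 in sechellia choice and 54.9 and 5.9 in sechellia no choice, against 20 to 28 over the 4 simulans arrays. The groups of both genes overlapped.

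**Figure D3:**
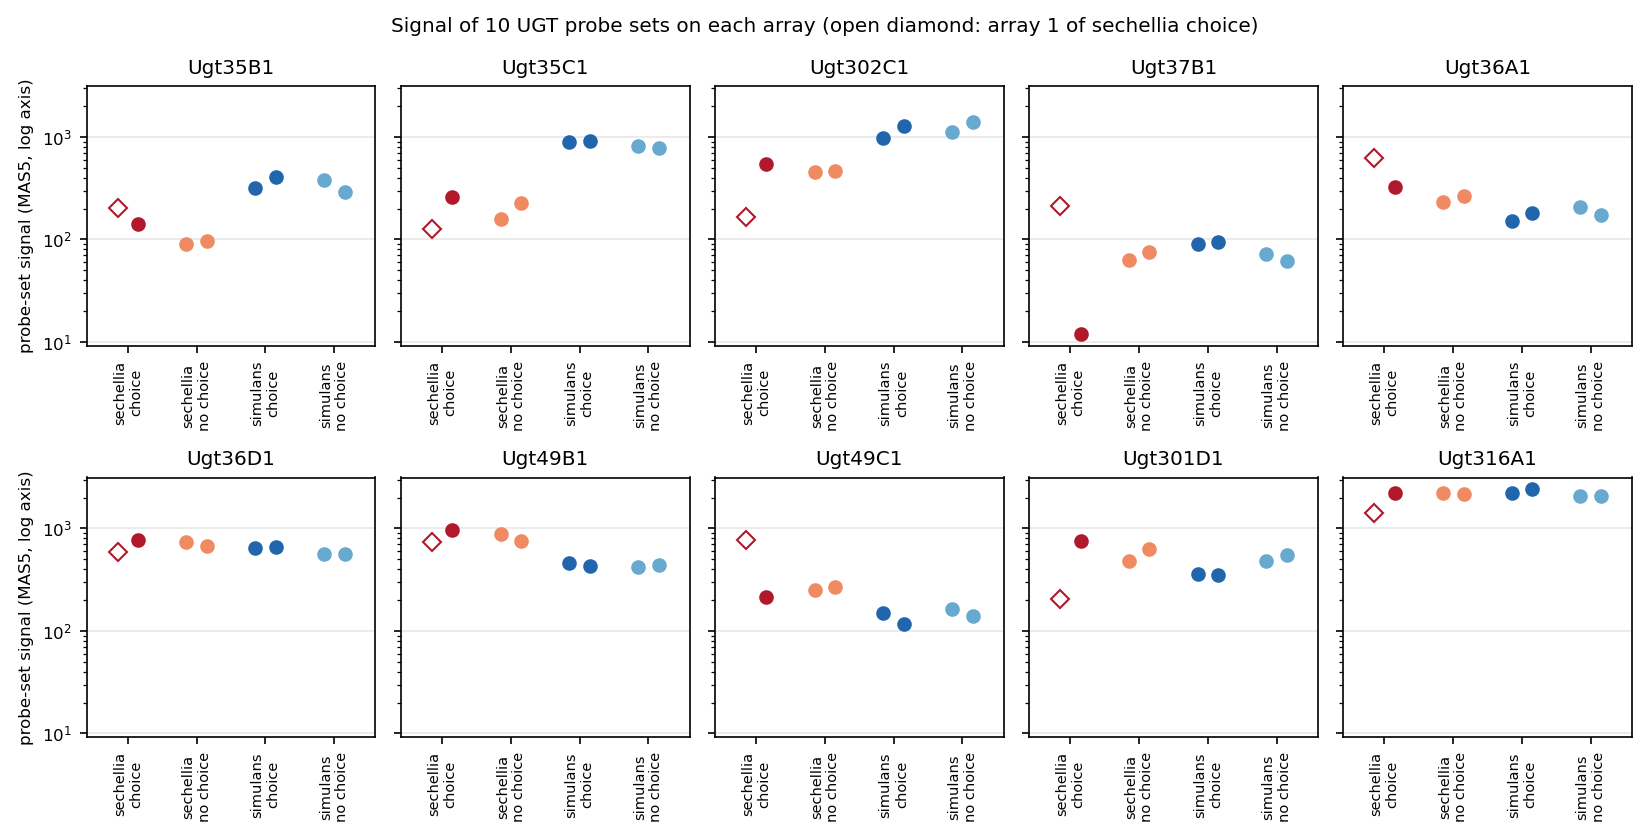
MAS5 signal (log axis) of 10 UGT probe sets on each array, in the order sechellia choice, sechellia no choice, simulans choice and simulans no choice; each point is 1 array and the open diamond is array 1 of sechellia choice. Ugt35B1, Ugt35C1 and Ugt302C1 lie lower and Ugt36A1, Ugt49B1 and Ugt49C1 higher on all sechellia arrays, and Ugt37B1 is low only on array 2 of sechellia choice.

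Counted without a model and without array 1, the sechellia arrays lay wholly above the simulans arrays for 4 of 26 tested members and wholly below for 5. Over all tested probe sets these shares were 19.0% and 15.8%. The members above were Ugt36A1, Ugt36D1, Ugt49B1 and Ugt49C1, and those below were Ugt35B1, Ugt35C1, Ugt36E1, Ugt302C1 and Ugt304A1. The last of these had 66.6 in sechellia choice and 62 and 58.7 in sechellia no choice, against 95.1 and 99.8 in simulans choice and 95 and 89.1 in simulans no choice.

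The species were next compared under each treatment. In choice, Ugt35C1 was lower at log2 -2.32 ± 0.36 (limma adjusted p = 0.016) and Ugt49B1 higher at 0.94 ± 0.21 (limma adjusted p = 0.0499) with 8 arrays. These were the 2 of 26 members called, where 4.14% of all tested probe sets were. With 7 arrays 7 members were called, 3 higher and 4 lower, where 19.4% of all were (9.61% higher, 9.78% lower): Ugt301D1, Ugt36A1 and Ugt49B1 were higher and Ugt302C1, Ugt35B1, Ugt35C1 and Ugt37B1 lower. Leaving out 1 array gave between 0 members and, without array 2 of sechellia choice, 18, where 68.4% of all were then called. It was 1 without either array of sechellia no choice, where 1.11% to 1.18% of all were called, and 0 without any 1 of the 4 simulans arrays, where 0.381% to 1.26% were.

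In no choice, Ugt35C1 was lower at -2.07 ± 0.36 (limma adjusted p = 0.019) and Ugt35B1 at -1.85 ± 0.35 (limma adjusted p = 0.028) with 8 arrays, the 2 of 26 called where 4.22% of all were. Ugt302C1, at -1.44 ± 0.48 (limma adjusted p = 0.18), and Ugt49B1, at 0.93 ± 0.21 (limma adjusted p = 0.051), missed the threshold. Array 1 of sechellia choice enters this contrast through the shared estimate of spread alone. With 7 arrays 7 members passed, 3 higher and 4 lower, where 28.2% of all did (14.5% higher, 13.7% lower): Ugt36D1, Ugt49B1 and Ugt49C1 were higher and Ugt35B1, Ugt35C1, Ugt36E1 and Ugt302C1 lower. Members called were also 7 without array 2 of sechellia choice, where 28.1% of all were called, and 0 without any 1 of the 6 remaining arrays, where 0.814% to 1.85% were. Fitted on the 4 no choice arrays alone, limma called 5 members, where 26.5% of all tested probe sets were called: Ugt35B1, Ugt35C1 and Ugt302C1 lower and Ugt49B1 and Ugt49C1 higher.

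The third comparison asked what choice changed within each species. In sechellia, limma called 0 of 26 members with 8 arrays and 0 with 7, where 0.0533% and 2.49% of all tested probe sets were called. Unadjusted p-values below 0.05 were found for 2 members in each fit, where 14.2% and 16.9% of all had them. Without array 2 of sechellia choice, so that array 1 stood for choice, 19 members would be called, 14 higher and 5 lower, where 66.0% of all would. Ugt305A1 had the largest positive value, with 1003 on array 1 and 242 on array 2 of sechellia choice against 35.8 and 142 in sechellia no choice, or 1.76 ± 0.81 with 7 arrays (limma adjusted p = 0.33). Ugt37B1 had the largest negative one, -2.53 ± 0.57 with 7 arrays (limma adjusted p = 0.06), from the 11.9 on array 2.

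Most members read slightly above no choice on array 2 of sechellia choice. With 7 arrays 23 of 26 were positive, with a median of 0.29, beside 53.9% positive and a median of 0.04 over all tested probe sets. All 23 values rest on the same array and have no replicate without array 1. In the same contrast the cytochrome P450 genes, which often modify a compound before a UGT adds a sugar, had a median of 0.35 over 73 tested probe sets, with 5 called higher and 0 lower, where 2.49% of all were called. With 8 arrays their median was 0.78, beside 0.19 over all tested probe sets, and 0 were called, where 0.0533% of all were. Without array 1, medians in this contrast were 0.01 for glutathione transferases and sulfotransferases, 0.12 for transporters and -0.02 for genes of UDP-sugar supply. They were 0.15 for the list of other users of UDP-glucose and -0.16 for regulators of the response to foreign compounds. Among called members of the species comparison, the choice effect was 0.45 ± 0.21 for Ugt35C1, 0.63 ± 0.28 for Ugt35B1, 0.24 ± 0.19 for Ugt302C1 and 0.26 ± 0.14 for Ugt49B1, none past the threshold. In the same contrast, 4 of 6 midgut and 6 of 11 ovary and eggshell marker probe sets were called higher with 7 arrays, against 1 of 6 and 1 of 11 with 8. Their part in the UGT values was not tested.

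In simulans, limma called 0 of 26 members for choice with 8 arrays and with 7, where 0.00761% and 0.274% of all were called. Unadjusted p-values below 0.05 were found for 0 and 1 members, where 1.85% and 14.9% of all had them. The median choice effect was 0.02, beside 0.0 for all tested probe sets. Ugt301D1 had the lowest unadjusted p with 7 arrays, at -0.53 ± 0.15 (limma adjusted p = 0.17), with 362 and 350.2 in choice against 482 and 549 in no choice. Both choice arrays lay below both no choice arrays. Ugt316A1, the member with the narrowest error with 7 arrays, gave 0.15 ± 0.07 there.

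**Figure D4:**
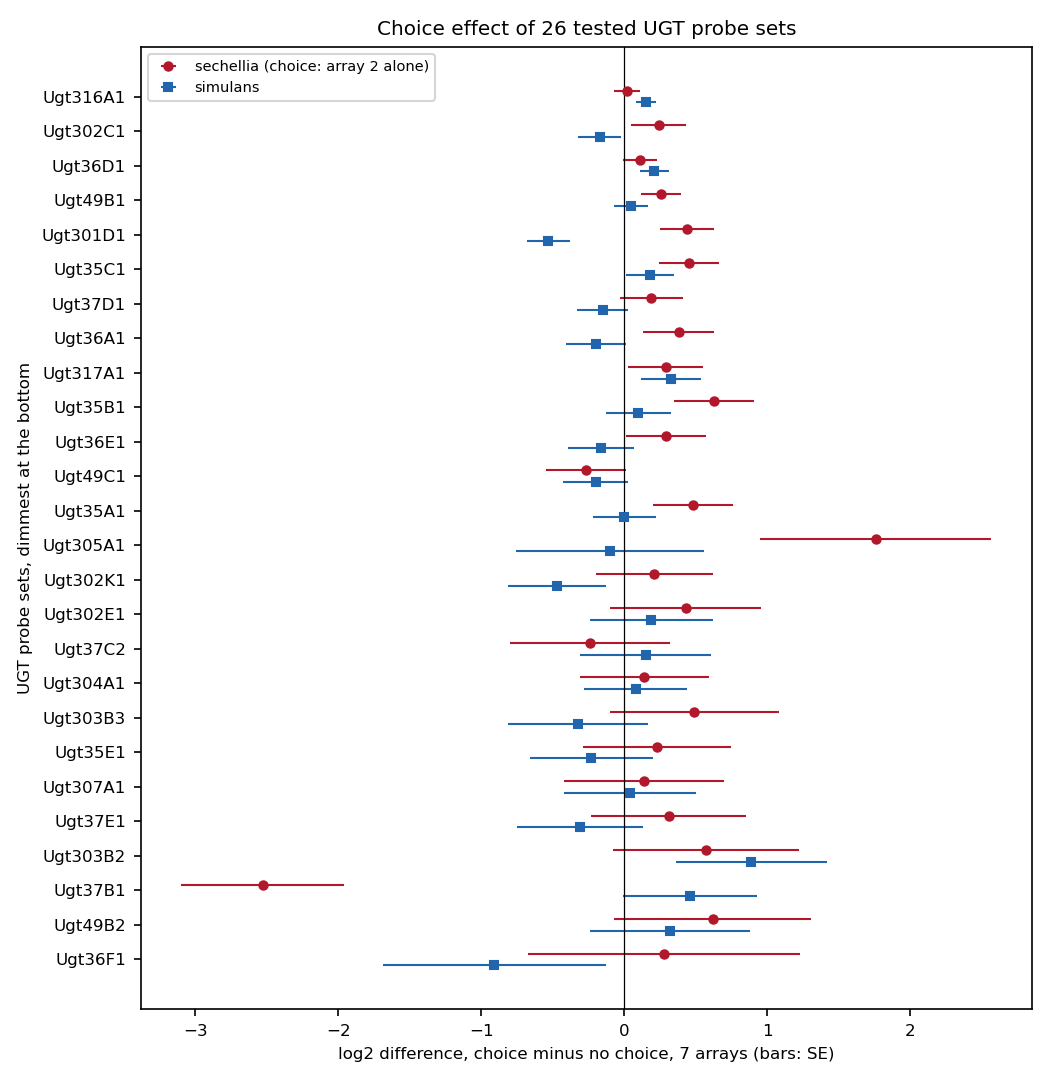
Log2 difference, choice minus no choice, with its standard error, for the 26 tested UGT probe sets without array 1 of sechellia choice, in sechellia (red circles, where choice is 1 array) and simulans (blue squares). Rows run from the brightest probe set at the top to the dimmest, and no member passed an adjusted p of 0.05 in either species.

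The choice effect was also compared between the species through the interaction, the effect in sechellia minus that in simulans. With 8 arrays and with 7, limma called 0 of 26 members, where 0.0152% and 2.79% of all tested probe sets were called. Unadjusted p-values below 0.05 were found for 0 and 2 members, where 6.84% and 17.2% of all had them. These 2 were Ugt301D1, at 0.97 ± 0.24 (limma adjusted p = 0.08), and Ugt37B1, at -2.99 ± 0.74 (limma adjusted p = 0.079). With 8 arrays they gave 0.03 ± 0.74 and -0.91 ± 1.7. Without array 2 of sechellia choice 16 members would be called, where 55.6% of all would.

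UGTs need UDP-glucose, so genes of UDP-sugar supply were counted beside them. The list was drawn up to cover enzymes of the pathways to UDP-sugars, from hexokinases on, and transporters of UDP-sugars. Of 17 tested probe sets for 15 such genes, 1 was higher and 1 lower in sechellia with 8 arrays, and 5 were higher and 2 lower with 7. These are 11.8% and 41.2% of them, where 9.87% and 32.5% of all probe sets were called. Their median differences were 0.0 and 0.08. Gfat1, which starts the pathway to UDP-N-acetylglucosamine, had 981 on array 1 and 319 on array 2 of sechellia choice and 369 and 350.5 in sechellia no choice, against 161 and 125 in simulans choice and 115 and 134 in simulans no choice. It was higher by 1.76 ± 0.35 with 8 arrays (limma adjusted p = 0.019) and by 1.35 ± 0.17 with 7 (limma adjusted p = 0.0004). Hex-C, a hexokinase, had 502 and 449 in sechellia choice and 325 and 345 in sechellia no choice, against 747 and 678 in simulans choice and 706 and 639 in simulans no choice. It was lower by -0.79 ± 0.14 with 8 arrays (limma adjusted p = 0.0098). Another list held 6 probe sets for 5 genes, drawn up as other users of UDP-glucose. It includes AGBE, a glycogen branching enzyme that does not itself use UDP-glucose. In this list 1 probe set was called higher and 0 lower with 8 arrays, where 9.87% of all probe sets were called. The median difference was 0.14 with 8 arrays and 0.32 with 7. Uggt, which adds glucose to misfolded glycoproteins in the endoplasmic reticulum, was higher by 0.66 ± 0.14 (limma adjusted p = 0.022). With 8 arrays, limma called 0 of these 23 probe sets for choice in sechellia, for choice in simulans or for the interaction. Of all tested probe sets, 0.0533%, 0.00761% and 0.0152% were called, in the same order. AGBE had 1434 and 1437 in simulans choice against 897 and 846 in simulans no choice. With 7 arrays its choice effect in simulans was 0.72 ± 0.09 and its interaction -0.84 ± 0.14.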

How the data were processed

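Total RNA of female bodies was labelled with biotin and hybridised to Affymetrix arrays. The deposited values are linear intensities, MAS5 signals per the submitters' processing notes, with no version or settings given. The mean with 2% trimmed at each end was 500.01 on every array, so the intensities were taken to log2 without further scaling. Of 18952 probe sets, 183 controls were set aside. Probe sets whose log2 signal, averaged over 8 arrays, lay in the lowest 30% (geometric mean below 49.9) were not tested, which left 13138. In the probe annotation 13647 probe sets had 1 symbol, 402 several and 4720 none. No sequence or position of a member is given.

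A linear model with 1 mean for each of 4 groups was fitted in R 4.3.3 by limma 3.58.1 (lmFit, then eBayes with an intensity trend), with 4 residual degrees of freedom for 8 arrays and 3 for 7. P-values were adjusted over all tested probe sets (Benjamini-Hochberg), and an adjusted p below 0.05 is a call. Errors are standard errors of that fit. In the 7-array fit, the lone array of sechellia choice is assumed to vary like the others. The code was tested on simulated data. Background was the median of 24 Bacillus controls per array, a choice taken over after the data had been seen. Members and gene lists were chosen with earlier results of these data known. Genes with all signals printed were those called with 8 arrays in any comparison or with 7 arrays in the averaged species difference, plus the 3 with the highest and the 3 with the lowest signals; further members were given signals after their values were seen. Alternatives covered normalisation, the dim limit, an offset, the trend, the arrays fitted, a replicate block and leaving out each array. Intensities carry no read depth; precision is limited by the number of arrays, by signals near background and by array 1 of sechellia choice.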

Additional observations from a re-analysis of the deposited data

Results flagged for a closer look

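Among 26 sets of 4 arrays, that is 13 named members in each species, 3 held an array far from the other 3 on the log2 scale. Chance alone would flag about 1 in 20 such sets. In sechellia, Ugt316A1 was lowest on array 1 of choice (its gap to the nearest array was 0.923 of the range, past Dixon's critical value) and so was Ugt302C1 (0.848), the array that stood apart throughout. Ugt303A1 was lowest on array 1 of sechellia no choice (0.842), at a signal of 3.9, below the median Bacillus signal of 28.1 on that array.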

How the results depend on the processing

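Directions of Ugt35C1, Ugt35B1, Ugt302C1 and Ugt49B1 between the species held under all alternatives, and the calls did not. Of 26 tested members, 4 were called for the averaged species difference, and 2 after quantile normalisation or median centring, where 8.78% and 3.19% of all probe sets were called. The count without array 1 of sechellia choice was 10 after quantile normalisation, 10 after loess, 9 with an offset of 50 and 11 with no dim limit (33.6%, 33.1%, 33.5% and 21.6% of all). Leaving out 1 array gave 1 to 13 (3.59% to 62.1% of all). For choice, the 2 called became 0 after quantile normalisation, median centring, without the intensity trend or on the compared arrays alone, 1 with no dim limit, with the offset or with the replicate block, and 4 after loess; of all probe sets 0.145% to 9.0% were called in these settings. Without array 1 it was 7 under quantile normalisation, loess or the offset and 8 with no dim limit (12.1% to 20.7% of all), and leaving out 1 array gave 0 to 18 (0.381% to 68.4%). For no choice, the 2 called became 0 after quantile normalisation or median centring, 1 without the trend or with the replicate block, and 5 on the compared arrays alone (0.891% to 26.5% of all). Without array 1 it was 7 after quantile normalisation or loess and 6 with the offset or no dim limit (18.7% to 28.9% of all), and leaving out 1 array gave 0 to 7 (0.814% to 28.2%). For the choice effect in sechellia the range was 0 to 19 and for the interaction 0 to 16, both highest without array 2 of sechellia choice; every other alternative gave 0 called, as did each for simulans. Median centring lowered the averaged log2 species difference of each probe set by 0.44 in the 8-array fit, and signs that such a shift turns are not read as results. After quantile normalisation Ugt35C1 missed the threshold (limma adjusted p = 0.053). Ugt301D1 reversed from 0.12 to -0.34 without array 2 of sechellia choice (range over left-out arrays -0.34 to 0.59). With 8 arrays it was also negative after quantile normalisation (-0.26) and median centring (-0.31), while quantile normalisation of 7 arrays gave 0.61. The cause of these shifts was not tested. The alternatives on 7 arrays were chosen after seeing the data. Labels do not say whether replicate numbers pair the arrays. Deviations of same-numbered arrays correlated at -0.123 to 0.052 between groups, array 1 of sechellia choice included, so no pairing was seen. With the block the averaged count was 4, where 7.97% of all were called. The choice and no choice counts were 1 each, where 2.38% and 3.14% of all were. Signals near the Bacillus controls limit what the dim members can show.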

Other observations

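Lists of other genes that handle foreign compounds were counted for the averaged species difference, where 9.87% of all tested probe sets were called with 8 arrays and 32.5% with 7. Of 12 probe sets for transporters that carry compounds or their conjugates across membranes (Mdr, MRP and Oatp genes), 2 were higher and 1 lower in sechellia with 8 arrays, and 6 were higher and 2 lower with 7. Oatp33Eb was higher by log2 1.1 ± 0.25 with 8 arrays (limma adjusted p = 0.029). Oatp58Da, an organic anion transporter gene, had 755 on array 1 and 133 on array 2 of sechellia choice and 108 and 80.2 in sechellia no choice, against 591 and 841 in simulans choice and 599 and 561 in simulans no choice. It was lower by log2 -1.89 ± 0.49 with 8 arrays (limma adjusted p = 0.049) and by -2.52 ± 0.17 with 7 (limma adjusted p = 1.4e-05). Of 5 probe sets for regulators of the response to foreign compounds, 1 was lower with 8 arrays, and 1 was higher and 3 lower with 7. Keap1, the inhibitor of the transcription factor encoded by cnc, was lower with 7 arrays at -1.86 ± 0.35 (limma adjusted p = 0.0037), and tgo, a partner of several bHLH-PAS factors, was lower with 8 at -0.90 ± 0.15 (limma adjusted p = 0.009). Of 33 probe sets for glutathione transferases and sulfotransferases, the other conjugating enzymes, limma with 8 arrays called 3 higher and 4 lower, and with 7 arrays 8 in each direction.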
